A study of Mus musculus with 64 samples.

Results

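Small RNA of whole mouse testis was compared between E16.5 and P10.5 (E for days of embryonic development, P for days after birth). Of the 64 samples of the series, 4 were chosen by their labels as small RNA libraries of whole testis, 1 library for each of 2 genotypes at each age. The genotypes were Morc1tg/+ and Morc1tg/tg, on the FVB/N background. The Morc1tg allele carries a tyrosinase transgene inserted in Morc1, with loss of exons that encode part of its ATPase domain. Every library therefore carried at least 1 mutant allele, and no small RNA of a wild-type testis was among them. The embryonic libraries came from pooled animals, so that 1 library stands for several mice. Total RNA was size-selected on gels for about the length of small RNAs, ligated to adaptors and sequenced without molecular identifiers, and each deposited line is 1 trimmed read. The 2 libraries of an age differ in genotype, so the standard deviation (SD) given for an age holds the genotype difference as well as any other. With 2 libraries against 2 an exact permutation test over samples cannot go below p = 0.333 (two-sided), so shares of reads are given as a description with no test.

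The germ line of the male mouse holds 2 abundant kinds of small RNA. MicroRNAs (miRNAs) are cut from hairpins by Drosha and Dicer1, are loaded on Argonaute proteins, and lower the output of mRNAs that pair with their seed, the bases at positions 2 to 8. Piwi-interacting RNAs (piRNAs) are longer, are made from single-stranded precursors without Dicer, and guide PIWI proteins to transposon transcripts. A primary piRNA usually starts with U, which is read as T. When a PIWI protein cuts its target, the cut end becomes the start of a secondary piRNA that overlaps the first by 10 bases on the other strand and so carries A at base 10. In the fetal testis piRNAs of transposons lead the silencing of these elements while DNA methylation is laid down, and the piRNAs of the first postnatal days come to a larger part from 3′ untranslated regions (3′ UTRs) of genes and from intergenic clusters.

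The libraries held 36397407, 29941101, 27939847 and 22864958 usable reads in the order E16.5 Morc1tg/+, E16.5 Morc1tg/tg, P10.5 Morc1tg/+ and P10.5 Morc1tg/tg, which is the order of all 4-part values here unless genotypes are named. Intervals on shares of this many reads are narrow and cover counting error only, since reads copied by PCR are not independent molecules. The E16.5 Morc1tg/tg library stood apart in its share of 18 to 19 nt reads, 16.1% against 7.52 to 9.93% in the other libraries. The libraries of the 2 ages also differed at the last base of the read. Where a miRNA hairpin has U at the last base, 0.179% and 0.126% of E16.5 reads ended in C there, and 29.3% and 26.9% of P10.5 reads did. The last 2 bases were therefore left free when reads were placed. Preparation and age cannot be told apart in these libraries.

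The reads that carry the comparison of longer small RNAs are shown first. Each had the most reads over the 4 libraries in its 20 kb window or, outside the 3′ UTR, in the exons of its gene, among reads of 25 to 30 nt with 1 place on mm9, and the capitals mark base 1 and base 10. The first pair lay outside annotated genes and belonged to the windows with most such reads at E16.5.
chr7:6576069-6576095, minus strand: TgctggaagCtgatttaattttgtgcc
chr8:48710083-48710110, plus strand: TggcaatttTttctaatcttctggctcc
The next, outside annotated genes, lay in a window that was among the first 10 at P10.5.
chr10:82842987-82843013, plus strand: TagaataggCtgtgagccaaggagact
The last set lay in coding exons of genes that were among the first 10 at P10.5, on the strand of the mRNA.
Hif1an, chr19:44640491-44640517, plus strand: TaacctgttGctcattggcatggaagg
Uhmk1, chr1:172141160-172141186, minus strand: TacagtcagAtctcaggaatggaaggc
Rab11fip4, chr11:79505321-79505348, plus strand: TacgaggcgAagaacctctttgcaaccc
The chr7 read was counted 1594 and 1651 times at E16.5, and 8 and 2 times at P10.5. The chr8 read was counted 561 and 307 times at E16.5 and had no read at P10.5, where a count of 0 allows up to 3 reads. The chr10 read was present at both ages, with 239, 157, 99 and 54 counts. The gene reads shown leaned the other way in raw counts, although the P10.5 libraries were shallower. Hif1an had 30 and 7 counts at E16.5 against 91 and 49 at P10.5, and Uhmk1 had 12 and 4 against 45 and 22. Rab11fip4 had 4 and 3 counts against 25 and 15. Not all genes among the first 10 at P10.5 had such a read. By the same rule the reads of Cbx5, Fam168b and Abl2 leaned to E16.5 in raw counts. Those of Bend4, D730040F13Rik, Gabpb2 and Tef leaned to P10.5. These genes were ranked by their P10.5 reads, so the counts are a description.

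Next are 2 pairs of reads from opposite strands whose 5′ ends overlap by 10 bases, the geometry of a piRNA and the secondary piRNA cut from its target. In each window the pair shown is the one whose rarer read had most counts at E16.5. The capitals mark the 10 bases that the 2 reads of a pair share as reverse complements.
chr8:48711289-48711317, plus strand: TAAATTCTGAacccaaagatctggctgcc
chr8:48711269-48711298, minus strand: TCAGAATTTAgcatttgtgtacatcgcacc
chr4:116861798-116861826, plus strand: TTCATTTTTAtatttatctcttggtgctg
chr4:116861780-116861807, minus strand: TAAAAATGAAcagtcaaaccttgaaacc
Such a pair was taken from 6 windows. The pairs shown lie outside annotated genes, and each of their reads starts with T, so that its partner has A at base 10. In 3 of the 6 windows, on chr1, chr11 and chr13, 1 read of the pair starts with C or A. At E16.5 the chr8 pair had 66 and 43 reads on the plus strand and 84 and 29 on the minus strand. At P10.5 it had 0 and 1 read on the plus strand and none on the minus strand. The chr4 pair had 34 and 31 plus reads and 164 and 105 minus reads at E16.5, and 0 at P10.5.

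Reads longer than 24 nt, the size of putative piRNAs, took a larger share of the testis small RNA at E16.5 than at P10.5. They made up 31.9% and 29.2% of reads at E16.5, and 15.0% and 13.5% at P10.5. The mean was 30.5% ± 1.90 (SD, n = 2) at E16.5 against 14.3% ± 1.02 (SD, n = 2) at P10.5, a difference of 16.2 percentage points that was larger than the spread within either age. Within Morc1tg/+ the difference was 16.9 points and within Morc1tg/tg it was 15.6. Reads of 20 to 23 nt, the size of miRNAs, went the other way. They were 51.3% and 44.2% of reads at E16.5, and 66.3% and 68.6% at P10.5. For each read of 20 to 23 nt there were 0.621 and 0.660 longer reads at E16.5, and 0.226 and 0.198 at P10.5. These are shares of 1 pool of RNA, so a smaller share of long reads and a larger share of miRNA reads cannot be told apart. In whole testis, fewer cells of a type and less RNA per cell cannot be told apart either.

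**Figure D1:**
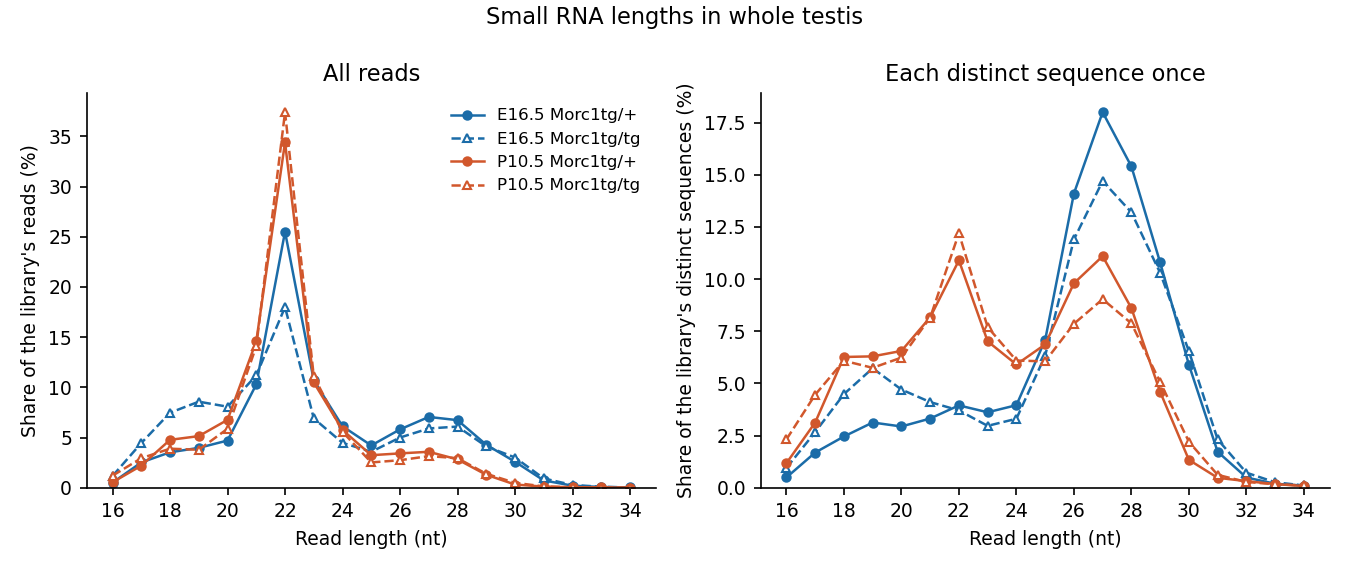
Share of reads (left) and of distinct sequences (right) in percent against read length in nt, 1 line per library, with E16.5 in blue and P10.5 in orange and Morc1tg/tg dashed. All libraries peaked at 22 nt over reads. The second hump at 26 to 28 nt was higher in both E16.5 libraries, and over distinct sequences it was their main peak.

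The length profile had 2 humps at both ages. At 22 nt, the length of most miRNAs, lay 25.5% and 18.0% of E16.5 reads and 34.4% and 37.4% of P10.5 reads. At 27 nt lay 7.06% and 5.91% of E16.5 reads, against 3.59% and 3.16% at P10.5. Reads of 30 to 33 nt were 3.64% and 4.35% of E16.5 reads, but 0.551% and 0.714% of P10.5 reads. A shortfall of this size class at P10.5 was also seen in reads of annotated small RNA genes. Whether those reads hold piRNAs was not tested. Among the reads of 25 to 33 nt on such genes, 4.43% and 6.22% were 30 nt or longer at E16.5, and 0.409% and 0.891% at P10.5. The gel fraction that the authors cut out ended at 30 nt, so this class lay at or beyond its upper edge. The part of size selection in the difference at 30 nt and above was not tested. Without that class, reads of 25 to 29 nt still differed by 12.8 percentage points.

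Counting each distinct sequence once gave the longer reads more weight at both ages. They were 74.0% and 66.6% of distinct sequences at E16.5, and 43.5% and 39.5% at P10.5. Most distinct long sequences were read 1 time, and so were most of those of 20 to 23 nt. Of distinct sequences longer than 24 nt, 77.0% and 63.4% had a single read at E16.5, and 81.1% and 76.0% at P10.5. At 20 to 23 nt the shares were 76.3% and 60.2% at E16.5, and 75.4% and 71.8% at P10.5.

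Among reads longer than 24 nt, T at base 1 was more frequent at E16.5. It was found in 62.1% and 61.4% of these reads at E16.5, and in 49.7% and 53.4% at P10.5. At the other positions of the same reads T averaged 24.6% and 24.8% at E16.5, and 22.9% and 23.8% at P10.5. All 4 libraries thus had an excess of T at base 1 that was far above their own background, and the groups did not overlap. A at base 10 showed a smaller difference. It was found in 29.8% and 30.9% of these reads at E16.5, and in 25.7% and 24.8% at P10.5. Against the mean of A at the other positions, which was 26.7%, 27.4%, 26% and 27.7%, base 10 was above background at E16.5 and below it at P10.5. Single positions among the first 20 bases reached 34% and 34.3% A at E16.5 and 31.2% and 37.4% at P10.5, so base 10 was not the position richest in A in any library.

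**Figure D2:**
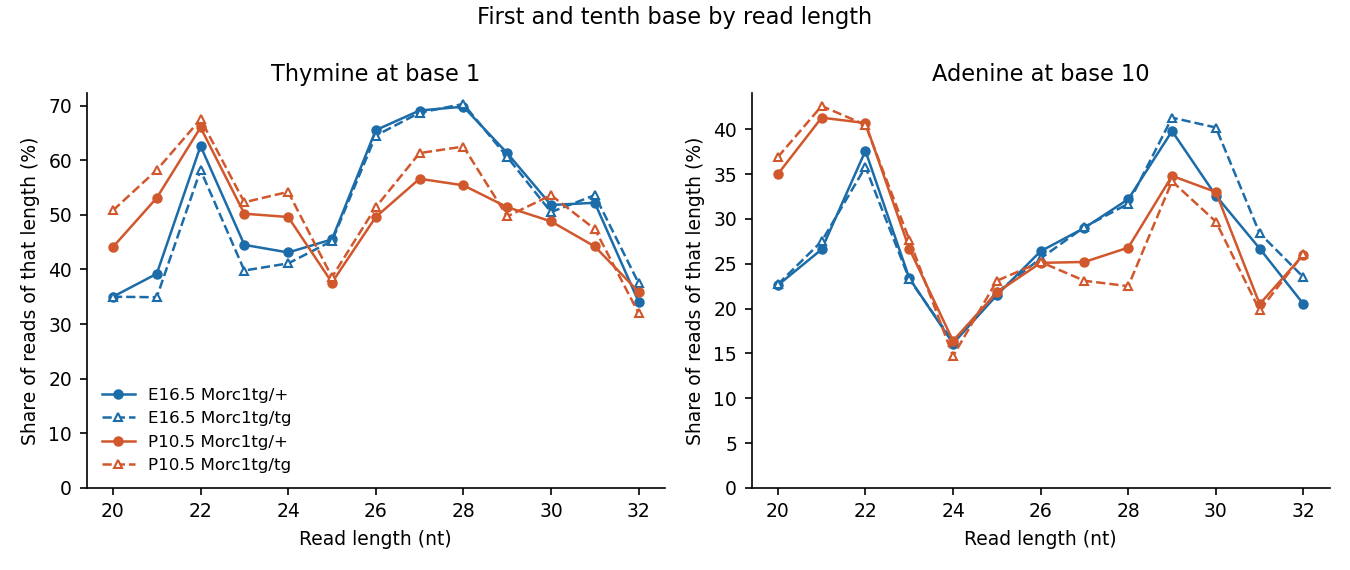
Share of reads of each length in percent with T (thymine) at base 1 (left) and A (adenine) at base 10 (right), against read length in nt, 1 line per library. From 26 to 28 nt the E16.5 libraries lay above both P10.5 libraries for T at base 1, and at 29 nt all 4 libraries had a local peak of A at base 10 that was higher at E16.5.

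The 2 signatures peaked at different lengths. T at base 1 was highest at 28 nt in the E16.5 libraries (69.8% and 70.3%). At P10.5 it was 55.4% and 62.5% at that length. A at base 10 was highest at 29 nt in the E16.5 libraries, with 39.8% and 41.3%, against 34.8% and 34.2% at P10.5. At P10.5 it was higher still among the few reads of 33 nt (35% and 43.5%). Of these, only 0.612% and 0.787% had a place on mm9, and A at base 10 was 25.8% and 14.8% in the placed ones. In reads of 22 nt the order of the ages was the opposite for both bases. These are mostly miRNAs, and T at base 1 was 62.6%, 58.2%, 66.0% and 67.5%. In reads of 24 nt A at base 10 was at its lowest, between 14.7% and 16.4% in all libraries.

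To see which long reads carried the signatures, reads of 25 to 33 nt were placed on the mm9 genome with their last 2 bases free. At E16.5, 74.3% and 69.9% had a place, and at P10.5, 59.0% and 51.0%. Reads with a place were 23.6% and 20.3% of whole libraries at E16.5, and 8.82% and 6.88% at P10.5. Reads with 1 place had the strongest T at base 1 at E16.5, 77.5% and 77.0%. At P10.5 they had 70.8% and 65.2%. Reads with 2 to 10 places had little of it, between 27.4% and 42.9% over the 4 libraries. Reads with over 100 places, the class that holds the youngest and most numerous repeats, had T at base 1 in 72.2% and 72.2% at E16.5 and in 73.3% and 77.9% at P10.5.

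A at base 10 was concentrated in the most repeated reads at both ages. With over 100 places it was found in 49.0% and 49.4% of reads at E16.5, and in 53.2% and 43.3% at P10.5. Among those of them that did not start with T, the candidates for secondary piRNAs, it was found in 69.5% and 70.2% at E16.5 and in 67.8% and 58.9% at P10.5. The ages overlapped in the first measure and not in the second. In reads with 1 place, A at base 10 was 30.5% and 29.8% at E16.5, and 25.2% and 26.4% at P10.5. Reads with over 100 places were 10.8% and 14.3% of all reads of 25 to 33 nt at E16.5 and 5.84% and 11.5% at P10.5, and the ages overlapped in this share. Repeat families were not annotated here, so these reads are not assigned to transposon families.

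Reads with a single place lay in different parts of the genome at the 2 ages. At E16.5, 58.9% and 58.6% of them lay outside annotated genes, against 29.3% and 29.9% at P10.5. Reads in exons of coding genes, in the direction of the mRNA, were 8.47% and 9.44% at E16.5 and 36.8% and 28.1% at P10.5. Most of that difference was in 3′ UTRs, which held 3.92% and 4.28% at E16.5 and 25.4% and 18.6% at P10.5. Inside genes, reads antisense to an intron were lower at P10.5, with 8.79% and 8.05% at E16.5 against 3.05% and 2.51%. Those antisense to an exon differed less, with 2.30% and 2.07% at E16.5 against 1.98% and 1.70%. This class included reads that also lay sense in an intron. Sense intron reads differed little, with 14.1%, 13.8%, 15.6% and 14.8%. Reads on annotated small RNA genes were 6.50% and 7.24% at E16.5, and 12.4% and 22% at P10.5. With those left out, the reads outside genes were 63.0% and 63.1% at E16.5, and 33.4% and 38.4% at P10.5.

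**Figure D3:**
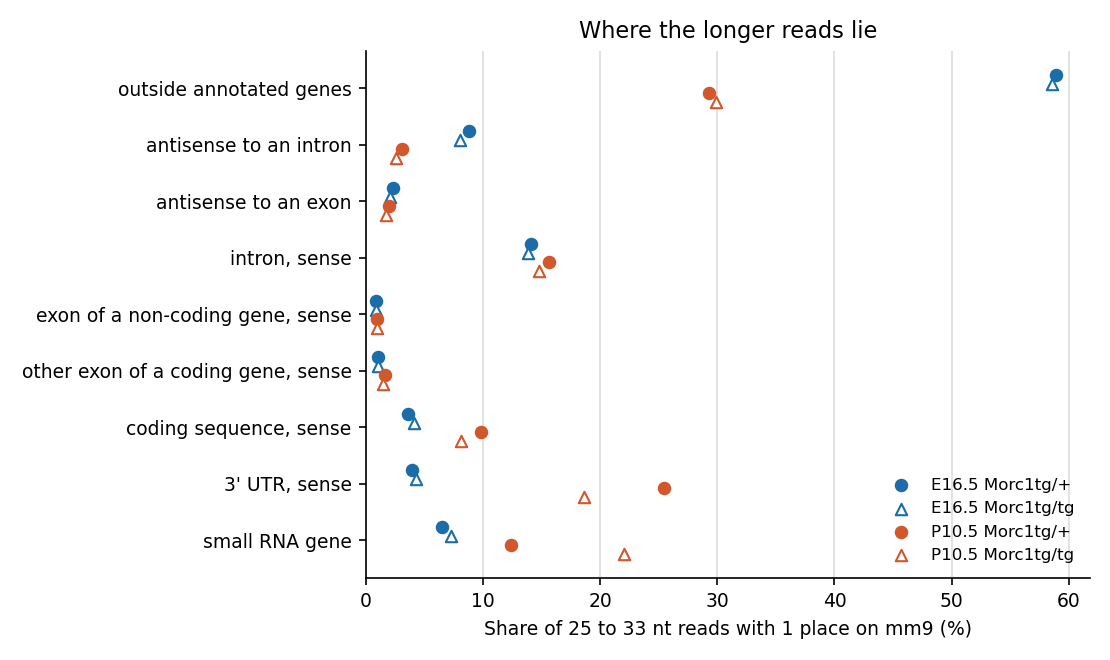
Share in percent of 25 to 33 nt reads with 1 place on mm9 that fell in each class of annotation, 1 point per library. Reads outside genes and antisense to introns were higher in both E16.5 libraries, and reads in 3′ UTRs, in coding sequence and in small RNA genes were higher in both P10.5 libraries.

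The 3′ UTR reads looked like primary piRNAs by their first base. T stood at base 1 in 81.0% and 81.7% of them at E16.5 and in 86.3% and 84.9% at P10.5, and A at base 10 in 25.5%, 25.5%, 24.1% and 24.4%. Outside genes, T at base 1 was 79.7% and 79.1% at E16.5, but 62.1% and 57.6% at P10.5. The mean length of 3′ UTR reads was 27.14 and 27.19 nt at E16.5, and 26.99 and 27.15 nt at P10.5. The T signature at P10.5 was thus strongest in 3′ UTRs, and at E16.5 it lay between 73.1% and 85.1% in every class except small RNA genes (44.5% and 48.3%).

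Windows of 20 kb were ranked by their 1-place reads of 25 to 33 nt, among windows where at least 60% of reads started with T, no single sequence took over 20% and small RNA genes took no more than 20%. The first 100 windows were much the same in the 2 libraries of an age, with 86 of 100 shared at E16.5 and 91 of 100 at P10.5. Between the ages 14 to 18 of 100 were shared. The window with most reads at E16.5, chr7:6560001-6580000, lay outside annotated genes and had 13190 and 17308 reads per 1000000 1-place reads (RPM), against 2281 and 2956 at P10.5. Nearly all of its reads lay on the minus strand, with at most 0.112% on the plus strand in any library. Its neighbour chr7:6580001-6600000 was the window that was among the first 10 at both ages, with 5458, 6611, 3139 and 4389 RPM.

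Reads on the lesser strand of a window took a larger share at E16.5. The windows named first were ranked by their E16.5 reads, so their lower levels at P10.5 are a description. At chr8:48700001-48720000 there were 11644 and 10022 RPM at E16.5, of which 69.5% and 71.7% lay on the plus strand, and 23.8 and 36.4 RPM at P10.5. The 29 and 22 reads left there at P10.5 lay on both strands too, with 55.2% and 59.1% on the plus strand. At chr4:94820001-94840000, which lies in BC042782, there were 2994 and 1988 RPM against 13.2 and 6.62. At chr11:96540001-96560000, which lies in Skap1, there were 3084 and 2345 RPM against 21.4 and 21.5. Over windows with at least 50 reads, 28.6% and 26.5% of reads at E16.5 lay on the strand with fewer reads, and 3.24% and 2.18% at P10.5. The number of such windows was 11891 and 7710 at E16.5 but 2538 and 990 at P10.5. In the 752 windows that had 50 reads in all 4 libraries, the lesser strand held 10.8% and 9.19% at E16.5, and 2.03% and 2.11% at P10.5. The ages did not overlap in either set of windows.

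Reads on opposite strands were then searched for 5′ ends that overlap by 10 bases. Each library was thinned to 1218538 reads of 1 to 100 places, since a partner is easier to find in a deeper library. At an overlap of 10 the paired share was 3.27% and 4.01% at E16.5, and 0.107% and 0.137% at P10.5. It is lower than the share of all reads with a partner. In the unthinned libraries that share was 8.12% and 10.3% at E16.5, and 0.598% and 0.764% at P10.5. The mean paired share over the other overlaps up to 20 was 1.22% and 1.5% at E16.5 and 0.0405% and 0.0519% at P10.5. In these reads the excess at 10 over the other overlaps was about equal at the ages, with ratios of 2.69, 2.68, 2.63 and 2.63. In the unthinned libraries the ratios were 2.39 and 2.50 at E16.5 and 2.60 and 2.63 at P10.5. Over reads with 1 place, thinned to 604210, the excess was higher at E16.5, with ratios of 2.78 and 2.56 against 2.05 and 1.69 at P10.5. The P10.5 ratios rest on few reads, with paired shares at 10 of 0.0523% and 0.0308%. Unthinned, the 1-place ratios were 2.28 and 2.32 at E16.5 and 1.97 and 1.69 at P10.5. The chr8 and chr4 pairs printed above are examples of such partners.

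**Figure D4:**
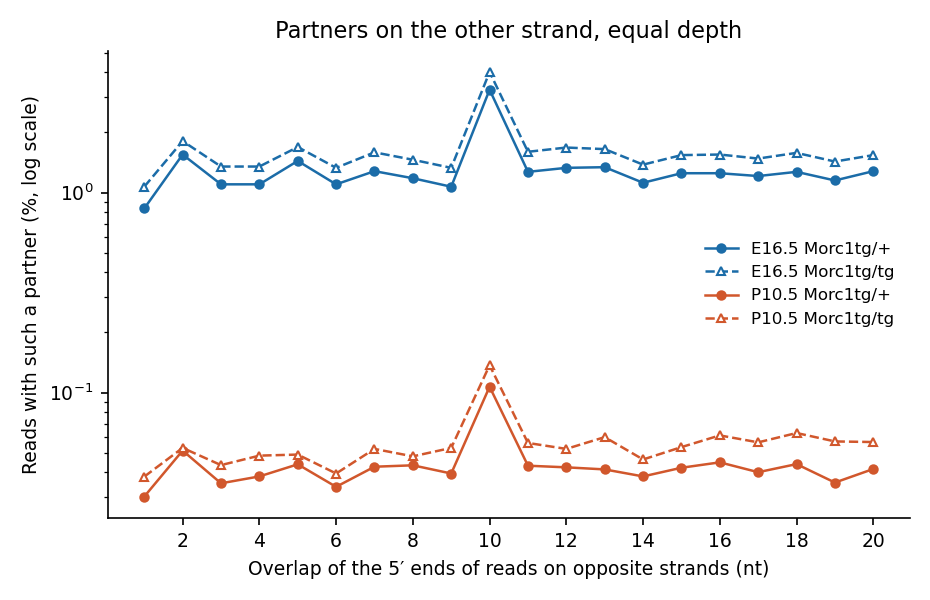
Paired share in percent, on a log axis, against the overlap in nt of 5′ ends on opposite strands, in libraries thinned to 1218538 reads. The paired share is lower than the share of all reads with a partner. In all 4 libraries the share was highest at 10 nt. Both E16.5 libraries lay far above both P10.5 libraries at every overlap.

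At P10.5, 5 of the first 10 windows lay in single genes, on the strand of the gene, and the other 5 lay outside genes or had under 2% of their reads on one. The window at chr1:133920001-133940000, nearly all of whose reads lay in Elk4, had 1032 and 1100 RPM at E16.5 and 11122 and 10410 at P10.5. Other such genes were Abl2 (a tyrosine kinase; 484 and 628 against 4652 and 3737 RPM) and Gabpb2 (a subunit of a transcription factor; 439 and 443 against 4558 and 3428). For Cbx5, which encodes the heterochromatin protein HP1 alpha, the values were 512 and 551 against 3642 and 3451. In these 3 genes 92.7% to 97% of the sense exon reads lay in the 3′ UTR. The steepest difference among the genes ranked was that of Bend4, with 62.5 and 75.0 RPM at E16.5 and 2505 and 1759 at P10.5. Hif1an (an oxygen-sensing hydroxylase) had 188 and 214 against 2153 and 2013, and Uhmk1 (a kinase) had 111 and 113 against 1522 and 1650. The first base of the reads of these genes was T in 89.2% to 92.5%. Only genes with T as the first base in at least 60% of reads were ranked, so a high share follows in part from the choice. Genes were ranked by their read counts within each age, so the differences are given as a description.

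Not all genes with long reads followed the 3′ UTR pattern. Cox4i1, a subunit of cytochrome c oxidase, had 263 and 354 RPM at E16.5 and 150 and 152 at P10.5, and 1.33% of its reads lay in the 3′ UTR. Fth1, the heavy chain of ferritin, had 288 and 383 at E16.5 and 1080 and 1251 at P10.5, with 5.02% in the 3′ UTR. Reads antisense to exons of Fam163a, which ranked among the first genes for such reads at E16.5, were 573 and 487 RPM at E16.5 and 20.6 and 13.2 at P10.5. Those antisense to exons of Mfsd4, the first such gene at P10.5 and also among the first at E16.5, went the other way. They were 483 and 496 RPM at E16.5 and 4974 and 4715 at P10.5. Those of Heatr7b1, which also ranked among the first at P10.5, were 9.46 and 7.38 RPM at E16.5 and 548 and 422 at P10.5.

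The most abundant sequences took different shares at different lengths. Over all lengths the 100 most abundant sequences of each library, which are mostly miRNAs, held 29.9% and 24.3% of reads at E16.5 and 32.8% and 38.3% at P10.5. Of reads longer than 24 nt they held 11.2% and 13.6% at E16.5, and 12.3% and 19.7% at P10.5. The mean difference, 3.60 points lower at E16.5, was smaller than the spread between the genotypes at P10.5. It rested on the P10.5 Morc1tg/tg library: without it E16.5 was 0.0544 points higher. The most abundant sequence longer than 24 nt in 3 of the libraries, and the next in P10.5 Morc1tg/+, was the same 28 nt read with no place on mm9, and it held 2.22%, 3.03%, 1.48% and 4.38% of these reads. Among reads with a place, the 100 most abundant held 7.04% and 6.58% at E16.5 and 9.46% and 12.1% at P10.5. The pool of long reads was thus not made up of a few sequences at either age.

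Of the 1000 most abundant sequences longer than 24 nt of a library, 779 were shared by the 2 E16.5 libraries and 644 by the 2 P10.5 libraries. Between the ages 395 to 458 were shared. By this count the library pairs of 1 age were more alike than pairs of 1 genotype, 458 for Morc1tg/+ and 419 for Morc1tg/tg. Sequences that differed at the last base counted as different, and the part of the last-base difference between the ages was not tested.

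Mature miRNAs were counted next. The sequences below, from RefSeq (GRCm38.p6), are those that the differences turned on, with the seed in capitals. The let-7 family shares the seed GAGGUAG.
let-7a-5p: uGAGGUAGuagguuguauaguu
let-7c-5p: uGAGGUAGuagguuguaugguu
let-7e-5p: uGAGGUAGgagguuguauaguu
let-7f-5p: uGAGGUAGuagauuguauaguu
let-7g-5p: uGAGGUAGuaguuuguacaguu
The first pair of the next set shares a seed and comes, with the others, from the cluster expressed in pluripotent cells.
miR-290a-5p: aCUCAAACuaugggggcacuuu
miR-292a-5p: aCUCAAACugggggcucuuuug
miR-293-3p: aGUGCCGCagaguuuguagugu
miR-294-3p: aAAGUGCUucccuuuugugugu
The following share the seed GGCAGUG, and their hairpins lie on chromosomes 4, 9 and 13.
miR-34a-5p: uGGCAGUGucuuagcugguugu
miR-34b-5p: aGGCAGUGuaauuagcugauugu
miR-449a-5p: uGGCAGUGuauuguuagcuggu
The next come from the X-linked cluster of the male germ line, and the first pair shares a seed.
miR-883a-3p: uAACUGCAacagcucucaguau
miR-883b-3p: uAACUGCAacaucucucaguau
miR-881-3p: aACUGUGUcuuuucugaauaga
The last set differ from each other in seed, and miR-497a-5p has the seed of miR-15 and miR-16.
miR-202-5p: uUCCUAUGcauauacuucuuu
miR-22-3p: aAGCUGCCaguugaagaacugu
miR-497a-5p: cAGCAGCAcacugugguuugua
miR-183-5p: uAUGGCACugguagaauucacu
miR-335-3p: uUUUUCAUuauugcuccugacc
Reads on miRNAs were 34.2% and 26.5% of all reads at E16.5, and 43.4% and 48.9% at P10.5. Levels are given in CPM, counts scaled to the miRNA reads of the library with the TMM method.

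The test between the ages was edgeR's quasi-likelihood F-test, and adjusted p-values follow Benjamini and Hochberg over all 649 miRNAs left by the filter on low counts. At an adjusted p under 0.05, 178 miRNAs were higher at P10.5, which is 27.4% of those tested, and 178 were higher at E16.5, which is 27.4%. In 511 miRNAs, 78.7% of those tested, the libraries of the 2 ages did not overlap, so a lack of overlap sets no miRNA apart here. The median log2 fold change over all tested was -0.04, P10.5 over E16.5. The p-values measure the spread between libraries of different genotypes, which may also be technical.

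**Figure D5:**
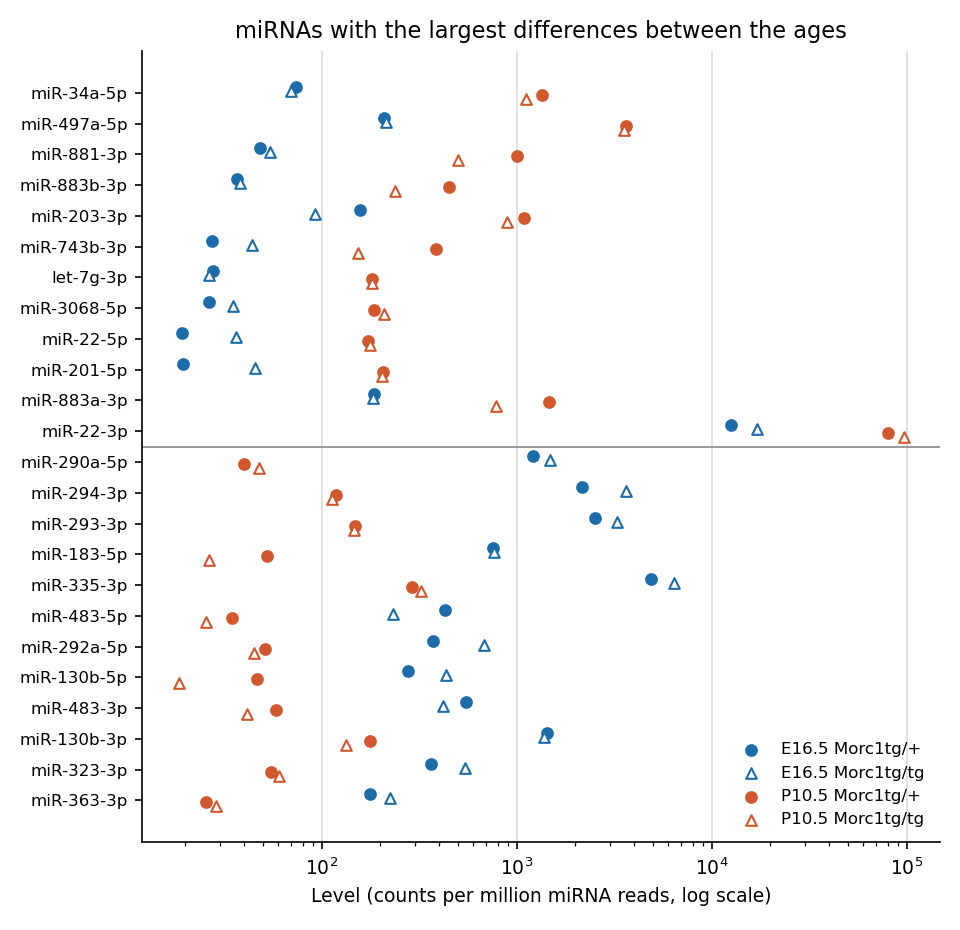
Levels in CPM (log axis) of the 12 miRNAs with the largest rises (above the line) and the 12 with the largest falls (below the line) from E16.5 to P10.5, among those past the test with a mean of at least 100 CPM, 1 point per library. The libraries of the 2 ages lie apart for each of them by the rule of choice.

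The let-7 family rose from E16.5 to P10.5. Of its 22 miRNAs tested, 19 were higher at P10.5 and none at E16.5, beside 27.4% each way over all miRNAs. The median log2 fold change was 1.64. let-7 miRNAs repress genes of the undifferentiated state, and their hairpins are bound by LIN28 proteins. let-7f-5p had 24120 and 19684 CPM at E16.5 and 107347 and 126671 CPM at P10.5. It was the most abundant miRNA at P10.5 and rose 5.34-fold (log2 fold change 2.42 ± 0.19 SE, edgeR adjusted p = 0.000299). let-7g-5p had 10078 and 6982 CPM against 37927 and 40331 CPM, a 4.59-fold rise (edgeR adjusted p = 0.000439). let-7a-5p had 39728, 34577, 79723 and 78847 CPM, and let-7c-5p had 41716, 38603, 68317 and 64224 CPM, rises of 2.13-fold and 1.65-fold. The ages did not overlap in any of them. let-7e-5p was the exception among the abundant members, with 12000 and 13394 CPM at E16.5 and 10522 and 11873 CPM at P10.5 (log2 fold change -0.18, edgeR adjusted p = 0.404). Together the 10 miRNAs with the seed GAGGUAG held 155532 and 135370 CPM at E16.5, and 370805 and 388670 CPM at P10.5. Counting only reads identical to the mature sequence left 13 of 19 let-7 miRNAs higher at P10.5 and 2 higher at E16.5, and the cause was not tested.

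The list of miRNAs of embryonic stem cells and early germ cells fell. It holds the cluster miR-290a to miR-295 and further such miRNAs. All 15 of the list that were tested were higher at E16.5, beside 27.4% of all miRNAs. The median log2 fold change was -3.73, and under each alternative run all or all but 1 of those tested were higher at E16.5. The hairpins of the cluster lie at chr7:3218639-3220837 (GRCm38.p6). miR-294-3p had 2168 and 3655 CPM at E16.5 and 118 and 113 CPM at P10.5, a 25.2-fold fall (log2 fold change -4.65 ± 0.32 SE, edgeR adjusted p = 0.000196). miR-293-3p had 2520 and 3260 CPM against 148 and 147 CPM. miR-290a-5p fell most, 30.7-fold, from 1215 and 1487 CPM to 40 and 47.9 CPM. Summed over the list the level was 6554 and 9486 CPM at E16.5 and 390 and 385 CPM at P10.5. The E16.5 libraries were far apart from the P10.5 libraries in each of these miRNAs.

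The X-linked cluster of the male germ line rose. Of 27 miRNAs tested, 25 were higher at P10.5 and none at E16.5, beside 27.4% each way over all miRNAs. The median log2 fold change was 2.45. The cluster at chrX:66776760-66839121 (GRCm38.p6) is expressed mainly in testis. miR-881-3p had 48.5 and 54.1 CPM at E16.5 and 1009 and 502 CPM at P10.5, a 14.7-fold rise (log2 fold change 3.88 ± 0.39 SE, edgeR adjusted p = 0.000431). miR-883b-3p rose 9.20-fold, from 37.0 and 38.1 CPM to 452 and 239 CPM. miR-880-3p had 456, 549, 3471 and 2006 CPM. In each of these 3 the P10.5 Morc1tg/+ library was above the P10.5 Morc1tg/tg library, with 1 library per genotype and no test. The sum over the list was 5203 and 5876 CPM at E16.5, and 21840 in Morc1tg/+ and 11955 in Morc1tg/tg at P10.5. Without the E16.5 Morc1tg/+ library, 18 of 27 were still called.

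miRNAs that share the seed GGCAGUG did not move together. miR-34a-5p, a target of p53, rose 17.3-fold from 73.7 and 69.5 CPM to 1355 and 1117 CPM (log2 fold change 4.11 ± 0.24 SE, edgeR adjusted p = 9.12e-05). miR-34b-5p, which is abundant in meiotic and later germ cells, fell from 255 and 239 CPM to 82.4 and 120 CPM (log2 fold change -1.29 ± 0.27 SE, edgeR adjusted p = 0.00660). Its other arm, miR-34b-3p, fell likewise, from 245 and 452 CPM to 69.3 and 69.7 CPM. miR-449a-5p had 41.1 and 27.0 CPM at E16.5 and 198 and 47.3 CPM at P10.5 (edgeR adjusted p = 0.0413). That rise rested on the Morc1tg/+ library at P10.5, since the other P10.5 library was close to the higher E16.5 one. Over the 5 miRNAs of the meiotic list, 2 were higher at P10.5 and 3 at E16.5, beside 27.4% each way over all miRNAs. None was higher at P10.5 without either E16.5 library or without the P10.5 Morc1tg/+ library, and without the last 1 was higher at E16.5.

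Of the miRNAs that mark other cells, that of the gonad soma rose. miR-202, whose hairpin lies at chr7:139957695-139957752 (GRCm38.p6), is made in Sertoli cells. miR-202-5p had 6146 and 13792 CPM at E16.5 and 50968 and 56953 CPM at P10.5, a 5.41-fold rise (log2 fold change 2.44 ± 0.37 SE, edgeR adjusted p = 0.00168). miR-202-3p had 530 and 739 CPM against 1954 and 2561 CPM. For both arms neither E16.5 library reached the P10.5 levels. The endothelial miR-126a-3p had 2367, 2295, 2036 and 2178 CPM (log2 fold change -0.15, edgeR adjusted p = 0.524). The red cell miR-451a had 1949 and 1445 CPM at E16.5 and 3454 and 4023 CPM at P10.5, a 2.20-fold rise (edgeR adjusted p = 0.00461). Of the 7 blood miRNAs tested, 3 were higher at P10.5 and 2 at E16.5, beside 27.4% each way over all miRNAs. Their median log2 fold change was 0.02.

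Summed levels of the other marker lists had no shared direction. The nervous tissue and epithelial lists were higher in both P10.5 libraries, the stromal list was higher in both E16.5 libraries, and the muscle list differed most within E16.5. The stromal list, which includes miR-10b-5p and miR-214-3p, summed to 120118 and 141323 CPM at E16.5 and to 83653 and 103585 CPM at P10.5, with 1 of 7 miRNAs higher at P10.5 and 2 at E16.5. These counts, like those of the marker lists that follow, are of few miRNAs and stand beside 27.4% each way over all miRNAs. The nervous tissue list summed to 78.4, 87.6, 317 and 304 CPM, most of it miR-9-5p, with 2 of 3 miRNAs higher at P10.5. The muscle list summed to 1161 CPM in E16.5 Morc1tg/+ and 52.1 CPM in E16.5 Morc1tg/tg, and to 405 and 352 CPM at P10.5. Of it, miR-133b-3p had 1142 and 34.2 CPM at E16.5, so the 2 embryonic libraries differed in a marker of muscle. The epithelial list summed to 3819 and 1088 CPM at E16.5 and to 10427 and 9202 CPM at P10.5. In it 4 of 10 miRNAs were higher at P10.5, 8 without the E16.5 Morc1tg/+ library, 7 without the P10.5 Morc1tg/tg library and 2 without the P10.5 Morc1tg/+ library. miR-200a-3p had 2456, 652, 6967 and 6666 CPM, and miR-203-3p had 157, 92.6, 1088 and 898 CPM. The part of other cells carried with the testis in these differences was not tested.

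Most miRNAs of the imprinted Dlk1-Dio3 region that passed the test were higher at E16.5. Of 78 tested, 42 were higher at E16.5 and 8 at P10.5, beside 27.4% each way over all miRNAs. The median log2 fold change of the 78 was -0.85. Without the P10.5 Morc1tg/+ library 24 were higher at E16.5. The hairpins lie at chr12:109563710-109743784 (GRCm38.p6) and are transcribed from the maternal chromosome. miR-433-3p had 2568 and 2575 CPM at E16.5 and 493 and 575 CPM at P10.5, a 4.81-fold fall (log2 fold change -2.27 ± 0.20 SE, edgeR adjusted p = 0.000305). miR-377-3p rose, from 155 and 186 CPM to 577 and 623 CPM (log2 fold change 1.82 ± 0.23 SE, edgeR adjusted p = 0.000918). The 2 arms of the miR-434 hairpin moved in opposite directions. miR-434-3p fell from 7252 and 9116 CPM to 3599 and 3505 CPM (edgeR adjusted p = 0.00194), and miR-434-5p rose from 292 and 339 CPM to 1142 and 1112 CPM (edgeR adjusted p = 0.000674). A single direction therefore did not hold for the whole region or for both arms of a hairpin.

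The miR-17 to miR-92 cluster and its paralogs, which are tied to cell division, held 24 tested miRNAs. Of these, 4 were higher at P10.5 and 8 at E16.5, beside 27.4% each way over all miRNAs, and without the P10.5 Morc1tg/+ library 1 was higher at P10.5. miR-20b-5p and miR-93-5p share the seed AAAGUGC. miR-20b-5p fell from 114 and 155 CPM to 22.4 and 30.8 CPM, and miR-93-5p rose from 1388 and 1602 CPM to 3698 and 3553 CPM. miR-92a-3p fell 2.60-fold, from 10328 and 11008 CPM to 4195 and 4013 CPM (edgeR adjusted p = 0.000815). miR-363-3p, of the same seed as miR-92a-3p, fell from 178 and 224 CPM to 25.6 and 28.9 CPM.

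Among the most abundant miRNAs, the levels of some overlapped between the ages. miR-10b-5p, the most abundant at E16.5, had 54752 and 68901 CPM there and 48873 and 62354 CPM at P10.5 (log2 fold change -0.15 ± 0.20 SE, edgeR adjusted p = 0.549). The ages overlapped in it, as they did in miR-130a-3p and in miR-199a-3p/miR-199b-3p. miR-22-3p rose 5.96-fold, from 12513 and 17173 CPM to 80620 and 96404 CPM (edgeR adjusted p = 0.000299), and its other arm rose 6.35-fold. miR-214-3p, from a hairpin expressed in mesenchyme, fell 4.94-fold, from 36938 and 38642 CPM to 6692 and 8616 CPM (edgeR adjusted p = 0.000299). miR-26a-5p (43625, 48400, 76644 and 88602 CPM), miR-125b-5p (17500, 12238, 30761 and 32798 CPM) and miR-181a-5p (47654, 50412, 28185 and 28751 CPM) differed by 1.80-fold, 2.14-fold and 1.72-fold. The first pair of these was higher at P10.5 and miR-181a-5p was higher at E16.5.

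Outside the lists, several hairpins gave large differences on 1 or both arms. miR-497a-5p, of the seed family of miR-15 and miR-16, which slows the cell cycle, rose 17.1-fold from 208 and 213 CPM to 3634 and 3569 CPM (edgeR adjusted p = 9.12e-05). miR-335-3p fell 18.4-fold, from 4907 and 6442 CPM to 292 and 325 CPM (edgeR adjusted p = 9.12e-05). miR-183-5p, best known from sensory cells, fell 19.1-fold, from 753 and 765 CPM to 52.7 and 26.5 CPM (edgeR adjusted p = 0.000305). Both arms of miR-483, which lies within the growth factor gene Igf2, fell about alike. miR-483-5p had 430, 231, 34.9 and 25.6 CPM and miR-483-3p had 553, 417, 58.4 and 41.4 CPM. Both arms of miR-130b fell too, with 1424, 1374, 178 and 134 CPM for miR-130b-3p and a 10.9-fold fall for miR-130b-5p.

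Levels of the genes that make, load and turn over small RNAs were taken from RNA-seq of sorted germ cells of the same ages and genotypes, 11 libraries of 1 mouse each. At E16.5 cells were sorted by the Oct4-IRES-eGfp reporter (4 libraries). At P10.5 they were sorted by surface markers and light scatter (7 libraries), and for the earlier age the Morc1tg allele had been crossed into the reporter strain, of mixed background. The sort, the strain background and the age therefore cannot be told apart. The check of the labels held in these libraries. Morc1 had 36.1 and 52.9 RPKM (reads scaled by gene length and library size) in Morc1tg/+ and 11.1 and 8.29 RPKM in Morc1tg/tg at E16.5, and at P10.5 8.15 to 11.1 RPKM in Morc1tg/+ and 4.36 to 5.58 RPKM in Morc1tg/tg. Of the germ cell markers, Ddx4 had 60.3 to 85.2 RPKM at E16.5 and 48.1 to 68.8 RPKM at P10.5, and Dazl had 154 to 208 RPKM and 199 to 279 RPKM. Dazl was higher at P10.5 (log2 fold change 0.56, edgeR adjusted p = 5.43e-07), the opposite direction to Ddx4. Markers of other testis cells were low but not equal between the ages. The 2 endothelial markers summed to 10.4 to 13.6 RPKM at E16.5 and 1.48 to 3.07 RPKM at P10.5, the 3 peritubular and stromal markers to 6.12 to 7.06 and 1.54 to 3.08 RPKM, and the 4 Leydig markers to 4.00 to 7.66 and 1.07 to 2.54 RPKM. The 4 Sertoli markers summed to 9.77 to 23.7 RPKM at P10.5, a range that held all the E16.5 values, but not all of them were level. Wt1 was higher at P10.5, with 0.969 to 1.66 RPKM at E16.5 and 3.30 to 8.16 RPKM at P10.5 (log2 fold change 2.28, edgeR adjusted p = 3.49e-10), as was Amh (log2 fold change 1.40, edgeR adjusted p = 0.00136). Their part in the results was not tested.

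Most genes of the piRNA pathway were lower in germ cells at P10.5. Of 24 genes listed and tested, 19 were higher at E16.5 and 2 at P10.5 by edgeR's quasi-likelihood test, with genotype in the fit. The list also held Nrd1, which encodes the peptidase nardilysin and is not known as a piRNA factor, and it is 1 of the 19 (log2 fold change -1.10, edgeR adjusted p = 4.2e-12). Over all 16917 genes, 7093 (41.9%) were higher at E16.5 and 6100 (36.1%) at P10.5, and RPKM values of 10290 (60.8%) did not overlap between the ages. The median log2 fold change of the 24 was -1.18, P10.5 over E16.5, against -0.12 over all genes. Of the PIWI proteins, Piwil4, the nuclear one of the fetal germ line, had 71.5 to 94.6 RPKM at E16.5 and 2.52 to 5.03 RPKM at P10.5 and fell 18.0-fold (log2 fold change -4.17 ± 0.11 SE, edgeR adjusted p = 1.6e-19). Piwil2, the cytoplasmic one, had 95.0 to 131 RPKM at E16.5 and 26 to 39.2 RPKM at P10.5 and fell 3.24-fold (edgeR adjusted p = 2.84e-16). Piwil1, the PIWI protein of meiotic and later cells, was low at both ages, with 9.51 to 11.6 RPKM and 1.5 to 2.54 RPKM. The ages did not overlap in any of the 3.

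Among the partners of the PIWI proteins, Spocd1, which links Piwil4 to DNA methylation, had the largest fall. It had 103 to 139 RPKM at E16.5 and 0.868 to 3.16 RPKM at P10.5, a 54.5-fold fall (log2 fold change -5.77 ± 0.14 SE, edgeR adjusted p = 1.21e-19). Tdrd9, a helicase that works with Piwil4, had 106 to 140 RPKM against 13.9 to 18.9 RPKM. Mael had 401 to 503 RPKM against 72.2 to 115 RPKM. The helicase Mov10l1, which feeds precursors into the pathway, fell less, from 127 to 175 RPKM to 51.9 to 66.7 RPKM. Ddx4 fell by 0.19 on the log2 scale with overlapping ranges (edgeR adjusted p = 0.0130), a call that was lost without E16.5 Morc1tg/+ replicate 2 (log2 fold change -0.12, edgeR adjusted p = 0.144). Tdrd12 and Pld6 were the 2 genes called higher at P10.5, with log2 fold changes of 0.40 and 0.48 and ranges that overlapped, and neither was called in the Morc1tg/+ libraries alone. The Pld6 call was also lost by DESeq2 (adjusted p = 0.0840) and without any 1 of 4 libraries, E16.5 Morc1tg/+ replicate 2 or replicate 1 of E16.5 Morc1tg/tg, P10.5 Morc1tg/+ or P10.5 Morc1tg/tg (edgeR adjusted p from 0.0565 to 0.109). Asz1, Tdrkh and Pnldc1 missed the threshold, with log2 fold changes of 0.01, -0.05 and -0.08.

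Of 13 genes of the miRNA pathway tested in the same germ cells, 6 were higher at P10.5, beside 36.1% of all genes, and 4 at E16.5, beside 41.9%. The nuclease Drosha had 52.6 to 70.3 RPKM at E16.5 and 77.9 to 110 RPKM at P10.5 (log2 fold change 0.77 ± 0.07 SE, edgeR adjusted p = 2.17e-10). Its partner Dgcr8 and the cytoplasmic nuclease Dicer1 rose by 1.05 and 0.97 on the log2 scale. Xpo5, which exports hairpins from the nucleus, fell from 27.3 to 33 RPKM to 8.02 to 14.1 RPKM (edgeR adjusted p = 4.3e-12). Eif2c3, which encodes the Argonaute protein AGO3, rose 6.57-fold from 0.478 to 1.07 RPKM to 3.97 to 5.45 RPKM (edgeR adjusted p = 6.61e-13).

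The let-7 family is held back by LIN28 proteins, which recruit enzymes that add U to let-7 hairpins. Of 11 genes of let-7 control and tailing, 8 were higher at P10.5, beside 36.1% of all genes, and 1 at E16.5, beside 41.9%. Lin28a had 9.59 to 15.9 RPKM at E16.5 and 10.6 to 20.2 RPKM at P10.5 (log2 fold change 0.41 ± 0.11 SE, edgeR adjusted p = 0.00125), with ranges that overlapped. Lin28b rose from 4.68 to 5.69 RPKM to 8.39 to 10.8 RPKM (log2 fold change 1.11 ± 0.10 SE, edgeR adjusted p = 1.16e-09). Of the uridylating enzymes, Zcchc11 rose by 0.91 on the log2 scale and Zcchc6 fell by 0.59. Zc3h7b, which binds miRNA hairpins, rose from 4.34 to 6.13 RPKM to 21.8 to 31.1 RPKM. Of the let-7 targets on the list, Trim71 and Igf2bp1 rose 1.98-fold and 2.56-fold, and Hmga2 was low at both ages with overlapping ranges (log2 fold change -0.23, edgeR adjusted p = 0.401). Over the genes of the piRNA, miRNA and let-7 lists, the age effect differed between the genotypes in 3 (Trim71, Igf2bp1 and Eif2c3) by edgeR's interaction term, beside 1.71% of all genes. These levels are of germ cells, whereas the let-7 levels above are of whole testis, in which somatic cells also hold let-7, so the values stand side by side without a test.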

How the data were processed

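Small RNA was measured in 4 whole testis libraries, and RNA in 11 libraries of sorted germ cells. Per the labels, the deposited small RNA files hold the authors' trimmed reads, 1 per line, in no unit other than the read itself. For RNA-seq the authors deposited read counts per gene and RPKM. The submitters' processing notes name Bowtie, HTSeq and mm9 without versions. Reads with an unknown base were left out. Reads of 25 to 33 nt were placed on mm9 and reads of 18 to 26 nt on RefSeq miRNA hairpins (GRCm38.p6), by exact matches with the last 2 bases free, and for miRNAs with a start shifted by up to 1 nt. Both counts were fitted with edgeR 4.0.16 (TMM, filterByExpr, quasi-likelihood), with genotype in the fit for RNA-seq. Alternatives used DESeq2 1.42.0. Scripts ran in R 4.3.3 and Python 3.11.15 and were tested on simulated data. The named miRNAs were up to 12 rises and 12 falls with a mean of at least 100 CPM, the 10 most abundant of each age, and members of the lists. Binomial intervals (95%) on shares cover counting error only. RNA-seq libraries held 7474627 to 14918478 reads on genes. Members and lists were chosen with earlier results of these data known. The placement of long reads on mm9, their annotation and overlaps, and the markers of other testis cells were added after seeing the data. Repeat families were not analysed here. The protocol in the labels speaks of embryonic testes for all 4 small RNA libraries, and ages were taken from the sample labels.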

Additional observations from a re-analysis of the deposited data

Results flagged for a closer look

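Among the 48 pathway genes checked for a library far from the others of its group, 2 were found, both in the 4 P10.5 Morc1tg/+ libraries of sorted germ cells. Chance alone gives such a library in about 1 in 20 groups. Ddx4 had 48.1 RPKM in 1 library, below the others, and Dgcr8 had 8.44 RPKM in 1 library, above the others.

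The change from E16.5 to P10.5 differed between the genotypes for 3 pathway genes by the interaction term of edgeR's fit. Over all 16917 genes 290 (1.71%) passed that test. The rise of Eif2c3 was smaller in Morc1tg/tg than in Morc1tg/+ by 0.92 on the log2 scale (a difference of -0.92, edgeR adjusted p = 0.0346). The rises of Trim71 and Igf2bp1 were larger in Morc1tg/tg, by 0.69 (edgeR adjusted p = 0.00778) and 0.58 (edgeR adjusted p = 0.0216).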

How the results depend on the processing

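The difference in reads longer than 24 nt, E16.5 minus P10.5, was 16.2 points. It was 28.8 with each distinct sequence counted once, 12.8 for reads of 25 to 29 nt, 14.1 for placed reads, and 14.9 to 17.6 with 1 library left out. For T at base 1 it was 10.2 points, 13.8 over distinct sequences, 12.9 without the 1000 most abundant sequences, and 8.32 to 12.1 with 1 library left out. For A at base 10 it was 5.06 points, 5.78 for 26 to 31 nt, 5.85 for placed reads, and 4.51 to 5.60 with 1 library left out. The reads of 25 to 29 nt and the placed reads were chosen after seeing the data. For the share of the 100 most abundant sequences it was -3.60, and from -7.25 to 0.0544 with 1 library left out.

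With 1 library left out, 121 to 163 miRNAs were higher at E16.5 and 129 to 176 at P10.5, against 178 each. With genotype as a replicate block 164 were higher at E16.5 and 168 at P10.5. Replicate numbers of the RNA-seq libraries did not pair the samples (correlations from -0.0183 to 0.0151), and the replicate block left 16 pathway genes higher at P10.5 and 24 at E16.5, as without it. Leaving out a library gave 15 to 16 and 24 to 25.

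Of 574 values of 64 named miRNAs under alternatives, 548 kept direction and call. Directions turned for miR-10b-5p (-0.33 to 0.04 with 1 library left out), miR-130a-3p (-0.40 to 0.07), miR-199a-3p/miR-199b-3p (-0.26 to 0.04) and miR-133b-3p (-1.71 to 3.37, and 0.83 with the genotype block). Counting identical reads alone gave 0.07 for miR-126a-3p and 1.75 for miR-411-3p, the 1 called miRNA that turned; the cause was not tested. Of 720 values of the 48 pathway genes, 691 kept direction and call, and none of the 40 called genes turned. Tdrkh turned to 0.03 with the block, and Asz1 to -0.02 with it, -0.09 by DESeq2 and -0.06 to 0.13 with 1 library left out. In the Morc1tg/+ libraries alone Eif2c4 turned to 0.02 and Tnrc6c to 0.01, and without low-count filtering Papd4 turned to 0.01. With 1 library left out Tnrc6c ranged from -0.04 to 0.00 and Papd4 from -0.04 to 0.03. DESeq2 also called Eif2c4 and Tnrc6c, and edgeR called Eif2c4 without E16.5 Morc1tg/+ replicate 2 or P10.5 Morc1tg/+ replicate 1 or 3 (edgeR adjusted p from 0.0122 to 0.0399). Over all 16917 genes the median log2 change was -0.12, and -0.23 by DESeq2. For small RNA, with 2 libraries a side, the spread within an age rests on 2 values, and the part of depth in it was not tested.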
